A study of Mus musculus with 8 samples.

Results

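Intrinsic apoptosis is the death program that developing sensory neurons run when they fail to obtain enough neurotrophin. The 9 regulators described here are Bax, Bak1, Bcl2, Bcl2l1, Bcl2l11, Mcl1, Bbc3, Hrk and Apaf1, taken by symbol from the 55414 Ensembl genes counted in each library, of which 17721 passed the expression filter and were tested. All 9 members passed it. The data are bulk RNA-seq of mouse dorsal root ganglia (DRG), the ganglia that hold the somatosensory neurons and their glia, at E18.5. The 4 AD1 OE embryos had the genotype AdvillinCre/+;Rosa26Dach1/+ and the 4 Control embryos Advillin+/+;Rosa26Dach1/+. Both groups thus carried 1 copy of a Dach1 transgene behind a stop cassette at Rosa26, and AD1 OE alone carried the Cre that removes the cassette in postmitotic sensory neurons, from the Advillin locus. There was no group with Cre and without the transgene, so an effect of Cre or of the altered Advillin allele and one of Dach1 cannot be told apart. The Rosa26Dach1 mice were of mixed C57Bl/6J and CD1 background. The question put to these genes was whether DRG in which Dach1 is expressed again across the sensory neurons show a transcript change in the death machinery.

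The pathway turns on a balance within 1 protein family. Bax and Bak1 open pores in the outer mitochondrial membrane, Bcl2, Bcl2l1 (Bcl-xL) and Mcl1 hold them in check, and BH3-only proteins such as Bcl2l11 (Bim), Bbc3 (Puma) and Hrk (harakiri) bind the guardians or activate the pore formers. Cytochrome c released through the pores assembles with Apaf1 into the apoptosome, which activates Casp9 and, through it, the caspases that dismantle the cell. In neurons deprived of nerve growth factor, Jun kinase signalling and FoxO factors are known to raise Bcl2l11, Bbc3 and Hrk, and loss of Bax protects sensory neurons from this death. Much of the pathway is set by phosphorylation, protein turnover and cleavage, which transcript counts do not measure.

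None of the 9 members was called as changed with edgeR, the main test here, and 2 lay apart between the groups. Bcl2l11 was 29.2% higher in AD1 OE and Bcl2 was 14.2% lower. The call rule took the thresholds of the study, an adjusted p under 0.005 together with an absolute log2 fold change over 0.25. It was applied to an edgeR quasi-likelihood test with Benjamini-Hochberg adjustment over all tested genes, and neither gene passed. With DESeq2, the tool the study used, Bcl2l11 passed the same thresholds (adjusted p = 1.07e-04, DESeq2) and Bcl2 did not. By the rule in edgeR, 455 genes, 2.57% of those tested, were called, 316 lower and 139 higher. At an adjusted p under 0.05 without a fold limit, 2 of 9 members passed against 6.55% of all tested genes. The 4 libraries of each group did not overlap for the same 2 of 9 members, against 13.0% of all tested genes, and 2 of 9 had an unadjusted p under 0.05, against 18.6%. The member log2 fold changes had a median of -0.019 and a median absolute value of 0.082, where all tested genes had 0.0018 and 0.084.

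Start regions of Bcl2l11, Bbc3 and Bcl2 are shown because Bcl2l11 and Bcl2 had groups that did not overlap and because FoxO factors are known regulators of the BH3-only genes. The windows are the 250 bases before a RefSeq transcript start on GRCm38.p6, an older build than the GRCm39 used for the counts, written 5′ to 3′ on the strand of the gene, with the forkhead core TGTTTAC, or GTAAACA when read on the other strand, in capitals.
Bcl2l11 window, chr2:128125788-128126037, plus strand: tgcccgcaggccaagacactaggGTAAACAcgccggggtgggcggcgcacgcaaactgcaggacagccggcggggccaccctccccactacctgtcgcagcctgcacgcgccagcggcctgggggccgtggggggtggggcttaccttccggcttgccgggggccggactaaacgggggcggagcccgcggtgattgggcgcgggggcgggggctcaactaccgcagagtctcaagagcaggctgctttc
Bbc3 window, chr7:16310011-16310260, plus strand: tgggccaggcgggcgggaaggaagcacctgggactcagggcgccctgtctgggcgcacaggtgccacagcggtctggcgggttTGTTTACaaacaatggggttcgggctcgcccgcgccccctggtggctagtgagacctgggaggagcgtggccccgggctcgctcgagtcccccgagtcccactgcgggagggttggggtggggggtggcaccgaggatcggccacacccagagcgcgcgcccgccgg
Bcl2 window, chr1:106714291-106714540, minus strand: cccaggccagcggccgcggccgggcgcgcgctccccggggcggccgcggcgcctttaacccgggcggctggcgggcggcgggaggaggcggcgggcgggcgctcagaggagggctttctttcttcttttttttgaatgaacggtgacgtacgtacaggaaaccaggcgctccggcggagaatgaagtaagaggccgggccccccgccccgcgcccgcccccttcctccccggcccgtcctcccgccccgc
The core lay 227 bases before the start in the Bcl2l11 window and 167 bases before it in the Bbc3 window. Both genes have more than 1 window, and the one printed is the one that holds the core. Their other windows, and that of the BH3-only member Hrk, held no core and are not printed. The core was in 2 of the 14 windows of the 9 members (several members have more than 1 start, and their windows can overlap) and in 3.17% of all 32851 windows of this length. The AP-1 site TGANTCA, to which Jun dimers bind, was in 0 of 14 member windows and in 6.75% of all windows. The cAMP response element TGACGTCA was in 0 of 14 and in 1.55% of all. These are matches of letters, searched on both strands, and binding was not measured here.

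The labels describe the cells as neurons and glia. Markers of both were present: the pan-neuronal Tubb3 averaged 1786 CPM (counts of a gene relative to the TMM-scaled total of its library) and the sensory neuron factor Isl1 205 CPM in Control, and the glial factor Sox10 averaged 111 CPM. Dach1 itself stood at 102, 91.5, 98.3 and 91.6 CPM in AD1 OE replicates 1 to 4 and at 30.2, 33.0, 33.6 and 33.7 CPM in Control (log2 fold change 1.56, SE 0.05, adjusted p = 1.77e-08, edgeR). Avil, whose locus carries Cre in AD1 OE, fell by 0.94 on the log2 scale (adjusted p = 1.98e-07, edgeR). Libraries held 22339059 to 44025625 counts, with overlapping totals in the 2 groups, and each member had between 208 and 6202 counts in every library. Sex, read from Xist and Y-linked genes, was unbalanced, with 3 males and 1 female in AD1 OE and 1 male and 3 females in Control. In bulk RNA, fewer cells of a type and less transcript per cell cannot be told apart.

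Levels of the members relative to each other were read from Control as CPM per kb of exon, so that long and short transcripts can be compared. Mcl1, an anti-apoptotic gene with a short-lived product, had the highest level at 39.9 ± 0.79 CPM per kb (SD, n = 4), followed by the pore former Bax at 24.7 ± 1.26 and by Bcl2l1 at 13.5 ± 0.28. Bak1 had 7.33 ± 0.31 CPM per kb, Bcl2 6.20 ± 0.14 and Bbc3 5.89 ± 0.67. Lower levels were found for Apaf1 (3.55 ± 0.15), Bcl2l11 (2.40 ± 0.14) and Hrk (1.73 ± 0.11). In this Control order only Bcl2 and Bbc3 overlapped with their neighbour. The AD1 OE order differed in the exchange of Bcl2 (5.31 ± 0.19 CPM per kb) and Bbc3 (5.48 ± 0.62), whose libraries again overlapped, and there Apaf1 (3.66 ± 0.13) and Bcl2l11 (3.10 ± 0.27) also overlapped. All 3 BH3-only members thus stayed below Mcl1, Bax, Bcl2l1 and Bak1 in both groups. Exon lengths came from the older annotation, and a gene whose neurons use a short form is understated on this scale.

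**Figure D1:**
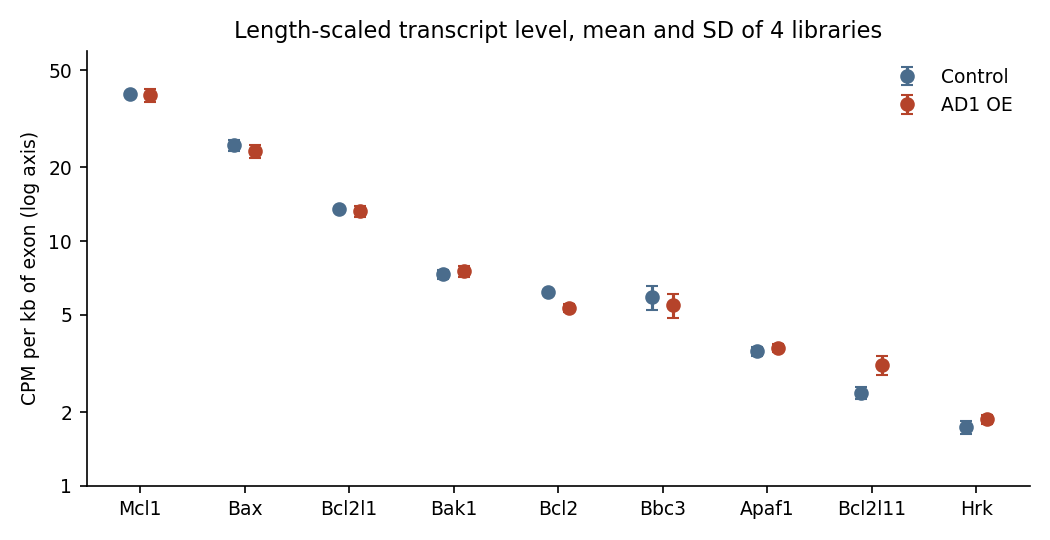
Length-scaled transcript level of the 9 members in CPM per kb of exon on a log axis, ordered by Control, with points for the mean and bars for the SD of 4 libraries (Control blue, AD1 OE red). Levels run from 39.9 for Mcl1 to 1.73 for Hrk in Control, and Bcl2l11 and Bcl2 are the members whose groups stand apart.

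Bax (ENSMUSG00000003873, chromosome 7), the pore former on which sensory neuron death depends, had 37.3, 35.6, 39.6 and 34.4 CPM in AD1 OE and 41.4, 38.3, 39.2 and 36.7 CPM in Control. The groups overlapped, and the log2 fold change of -0.08 (95% interval -0.21 to 0.04, adjusted p = 0.495, edgeR) placed AD1 OE at 94.5% of Control. Its relative Bak1 (ENSMUSG00000057789, chromosome 17), the other pore former, had 18.4, 18.0, 19.2 and 16.9 CPM in AD1 OE and 18.4, 17.6, 18.0 and 16.6 CPM in Control. These values overlapped almost fully (log2 fold change 0.04, 95% interval -0.09 to 0.17, adjusted p = 0.782, edgeR). Differences within these intervals are not excluded by the values of these 8 libraries.

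Bcl2 (ENSMUSG00000057329, chromosome 1), the founding anti-apoptotic member, was lower in AD1 OE. Its values were 51.1, 47.9, 46.9 and 48.8 CPM in AD1 OE and 57.0, 58.2, 56.7 and 55.2 CPM in Control. Every AD1 OE library lay below every Control library. The log2 fold change was -0.22 (SE 0.04, adjusted p = 0.00751, edgeR), which missed the call rule on both its p and its fold limit, and AD1 OE stood at 85.8% of Control (95% interval 80.5% to 91.5%). With DESeq2, the tool the study used, the adjusted p was 4.09e-04 and the fold limit was still missed.

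Bcl2l1 (ENSMUSG00000007659, chromosome 2) encodes Bcl-xL, a guardian on which maturing neurons rely. It had 63.2, 58.5, 63.3 and 57.7 CPM in AD1 OE and 60.6, 61.9, 61.9 and 63.7 CPM in Control. The groups overlapped, with AD1 OE libraries both above and below most of Control (log2 fold change -0.03, 95% interval -0.13 to 0.06, adjusted p = 0.768, edgeR). Mcl1 (ENSMUSG00000038612, chromosome 3) had 140, 143, 130 and 126 CPM in AD1 OE against 138, 139, 135 and 133 CPM in Control. AD1 OE held both the highest and the lowest of the 8 Mcl1 values (log2 fold change -0.02, adjusted p = 0.868, edgeR), and the sign turned in 2 of 17 alternative fits. Bcl2 was therefore the only anti-apoptotic member whose groups did not overlap, where 13.0% of all tested genes had such groups. Whether it differed from Bcl2l1 and Mcl1 in its response was not tested.

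Bcl2l11 (ENSMUSG00000027381, chromosome 2) encodes Bim, a BH3-only protein that neutralises the guardians and is induced in neurotrophin-deprived neurons. It had 24.2, 25.0, 27.8 and 22.6 CPM in AD1 OE and 19.6, 17.8, 20.4 and 19.4 CPM in Control. Every AD1 OE library lay above every Control library. The log2 fold change of 0.37 (SE 0.07) put AD1 OE at 129% of Control (95% interval 116% to 144%), past the fold limit, with an adjusted p of 0.0080 (edgeR) that missed the limit of 0.005. The call depended on the method: Bcl2l11 was called with DESeq2 (adjusted p = 1.07e-04) and when the expression filter was dropped (adjusted p = 2.06e-04), and in none of the other 15 alternative fits, whose adjusted p reached 0.0319 without Control replicate 2.

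Bbc3 (ENSMUSG00000002083, chromosome 7), the p53-induced BH3-only gene Puma, had 11.1, 10.7, 13.6 and 11.2 CPM in AD1 OE and 13.2, 13.7, 10.5 and 12.7 CPM in Control. The groups overlapped, since AD1 OE replicate 3 lay among the Control values and Control replicate 3 was the lowest of the 8 libraries. The log2 fold change was -0.11 (95% interval -0.33 to 0.11, adjusted p = 0.619, edgeR). Hrk (ENSMUSG00000046607, chromosome 5), a neuronal BH3-only gene, had 11.3, 10.4, 10.4 and 10.3 CPM in AD1 OE and 9.36, 10.1, 10.6 and 9.29 CPM in Control. AD1 OE lay on the high side, but Control replicate 3 exceeded 3 of its 4 libraries (log2 fold change 0.12, 95% interval -0.04 to 0.27, adjusted p = 0.424, edgeR). Of the 3 BH3-only members, Bcl2l11 alone had groups that did not overlap, where 13.0% of all tested genes had such groups.

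Apaf1 (ENSMUSG00000019979, chromosome 10), the scaffold of the apoptosome, had 33.8, 33.6, 33.4 and 31.2 CPM in AD1 OE and 33.5, 32.5, 30.2 and 32.2 CPM in Control. The groups overlapped (log2 fold change 0.04, 95% interval -0.07 to 0.15, adjusted p = 0.720, edgeR).

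**Figure D2:**
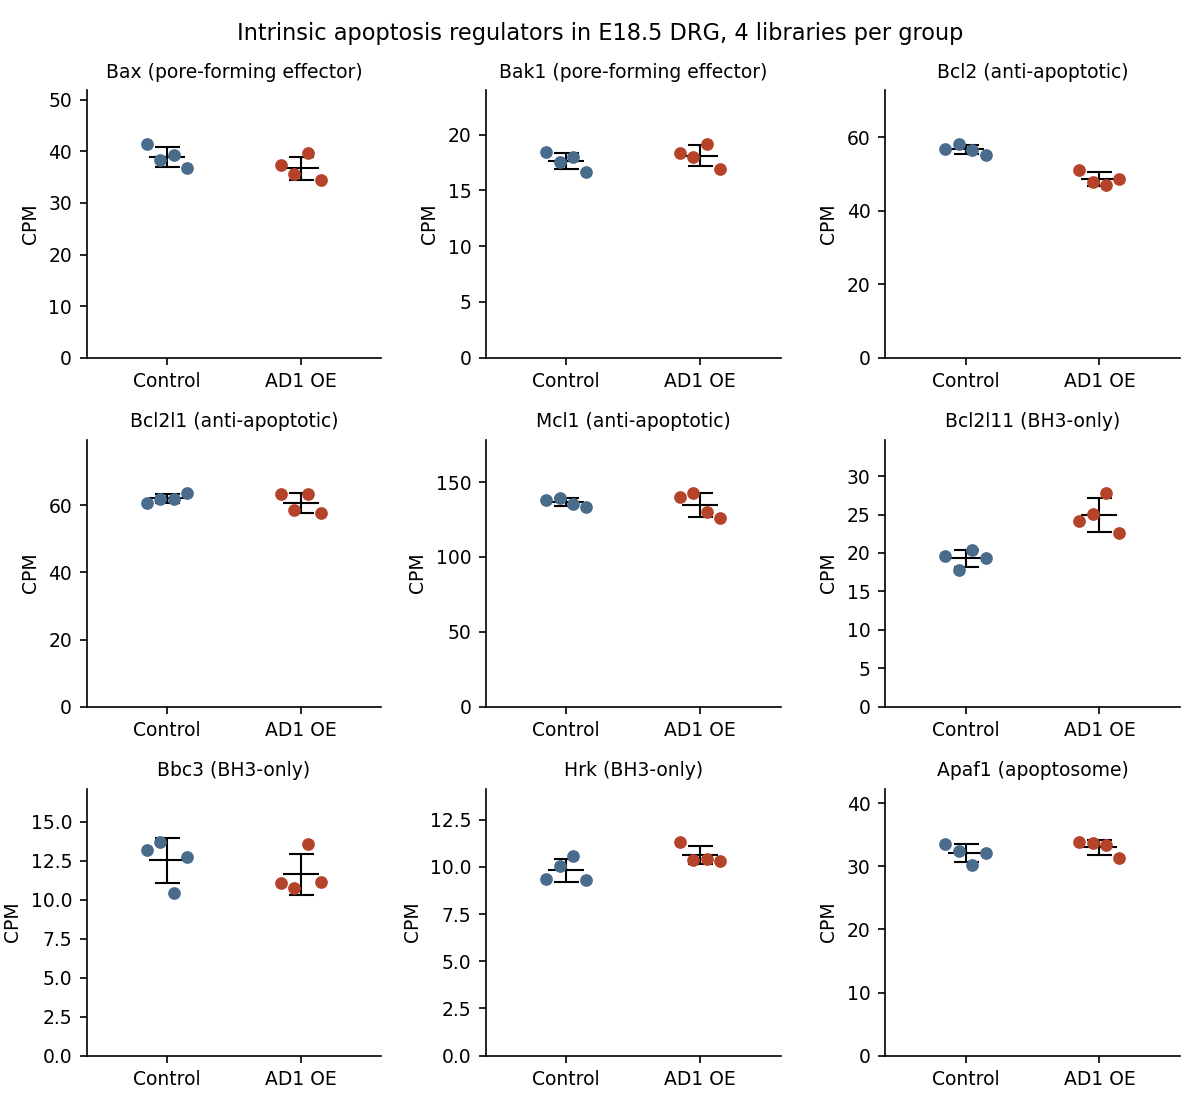
Level of each of the 9 members in CPM, 1 panel per gene with the axis from 0; points are the 4 libraries of a group in replicate order from left to right (Control blue, AD1 OE red), and the bars show the mean and SD. Bcl2 is lower in all 4 AD1 OE libraries (46.9 to 51.1 against 55.2 to 58.2 CPM) and Bcl2l11 higher in all 4 (22.6 to 27.8 against 17.8 to 20.4 CPM), while the groups overlap in the other 7 panels.

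AD1 OE replicate 3, the only female of its group, had the highest Bcl2l11 and Bbc3 and the lowest Bcl2 of AD1 OE. Without it the log2 fold change was 0.32 for Bcl2l11 (adjusted p = 0.0133, edgeR) and -0.19 for Bcl2 (adjusted p = 0.0252, edgeR). Within females, Bcl2l11 was at 27.8 CPM in the single AD1 OE library and at a mean of 19.2 CPM in 3 Control libraries. Within males it averaged 23.9 CPM in 3 AD1 OE libraries and was 19.4 CPM in the single Control library. Bcl2 was at 46.9 against 57.3 CPM in females and at 49.2 against 55.2 CPM in males. The direction was thus the same in both sexes for both genes, on 1 library in an arm of each. With sex as a covariate the log2 fold change was 0.42 for Bcl2l11 (adjusted p = 0.00639, edgeR) and -0.22 for Bcl2 (adjusted p = 0.0246, edgeR). A genotype by sex term, added after the data had been seen, passed in 0 of 9 members, also at an unadjusted p under 0.05, with adjusted p from 0.992 (edgeR).

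Ratios of opposing members within a library do not depend on its depth. On the log2 scale of CPM, Bax to Bcl2 was -0.45, -0.43, -0.24 and -0.50 in AD1 OE and -0.46, -0.60, -0.53 and -0.59 in Control. AD1 OE lay on the higher side, but its replicate 4 fell below Control replicate 1. Bax to Bcl2l1 ranged from -0.76 to -0.68 in AD1 OE and from -0.80 to -0.55 in Control, with the AD1 OE values inside the Control range. For Bcl2l11 to Bcl2, the log2 ratio was -1.08, -0.94, -0.76 and -1.11 in AD1 OE and -1.54, -1.71, -1.47 and -1.51 in Control. These groups did not overlap, as follows from the values of both genes, and Bcl2 counts exceeded Bcl2l11 counts in every library.

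The rest of the pathway was read from 7 lists holding 104 genes, of which 97 were tested. Called genes numbered 3 of 97, or 2 higher and 1 lower, against 2.57% of all tested genes. Their log2 fold changes had a median of 0.01 and a median absolute value of 0.06, and 11 of 97 had groups that did not overlap, against 13.0% of all tested genes. The 3 genes were Casp1, Naip1 and Cdkn1a, and none of them belongs to the core sequence from Bax through Apaf1 to Casp9.

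Among the caspases, 1 of 9 tested genes was called as lower and 0 as higher, against 2.57% of all tested genes called in either direction. The called gene was Casp1, which encodes the inflammasome protease that matures interleukin-1 beta rather than an apoptotic executioner. Casp1 had 1.02, 1.20, 1.26 and 1.44 CPM in AD1 OE and 3.73, 3.36, 3.54 and 3.02 CPM in Control. The groups lay far apart (log2 fold change -1.48, SE 0.15, adjusted p = 6.58e-05, edgeR), on 27 to 108 counts per library. The initiator Casp9 averaged 52.9 ± 2.78 CPM in AD1 OE and 53.9 ± 2.28 in Control (SD, n = 4; log2 fold change -0.03, adjusted p = 0.806, edgeR). The inflammatory caspase Casp4 had the highest log2 fold change of the list, 0.20, from 1.79 to 2.07 CPM (adjusted p = 0.627, edgeR).

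Mitochondrial death factors and inhibitor of apoptosis genes held 1 higher call among 16 tested, against 2.57% of all tested genes called in either direction. Naip1, named for its homology to caspase inhibitors and known as a sensor of bacterial proteins in the inflammasome, had 3.28, 4.50, 3.86 and 4.03 CPM in AD1 OE and 1.35, 1.53, 1.85 and 1.64 CPM in Control. It rose with a log2 fold change of 1.29 (SE 0.14, adjusted p = 1.72e-04, edgeR), on 30 to 145 counts per library. Naip1 is 1 of a family of near-identical genes among which reads can be shared, so its count is uncertain. The other 3 tested copies went both ways without a call, with log2 fold changes of 0.22 for Naip5, -0.34 for Naip2 and -0.64 for Naip6. Cytochrome c (Cycs) averaged 5.72 and 6.01 CPM in AD1 OE and Control (adjusted p = 0.792, edgeR), and the caspase inhibitor Xiap 147 and 139 CPM (adjusted p = 0.505, edgeR). The mitochondrial nuclease Endog averaged 3.42 and 3.72 CPM (adjusted p = 0.824, edgeR). Casp1 and Naip1 were called in all 17 alternative fits.

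Of the 12 other Bcl2 family genes tested, 0 were called and 0 passed an adjusted p of 0.05, with 2 at an unadjusted p under 0.05 against 18.6% of all tested genes, both lower (edgeR); DESeq2 also called 0. Bad, a BH3-only gene silenced by survival kinases, had the lowest adjusted p of this list. It averaged 37.8 ± 2.26 CPM in AD1 OE and 43.3 ± 2.67 in Control (SD, n = 4; log2 fold change -0.19, adjusted p = 0.0850, edgeR), and its groups overlapped. The other BH3-only genes gave log2 fold changes of 0.16 for Bmf, which senses the cytoskeleton (adjusted p = 0.305), -0.06 for Bid, which links death receptors to mitochondria (adjusted p = 0.709), and 0.11 for Pmaip1, or Noxa (adjusted p = 0.908, edgeR). Pmaip1 stood at only 0.53 CPM in Control. Bik, a BH3-only gene of similarly low level that was named after its values were seen, had 0.610, 0.312, 0.727 and 0.684 CPM in AD1 OE and 0.855, 1.31, 1.06 and 0.734 CPM in Control. Its groups did not overlap and its log2 fold change of -0.74 was the lowest of the list, but it was not called (adjusted p = 0.155, edgeR), on 7 to 42 counts per library. The anti-apoptotic Bcl2l2 averaged 76.1 and 79.0 CPM in AD1 OE and Control (adjusted p = 0.518, edgeR). Bcl2l15, at 1.04 and 1.18 CPM, had the lowest log2 fold change among genes of at least 1 CPM, -0.22 (adjusted p = 0.698, edgeR).

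**Figure D3:**
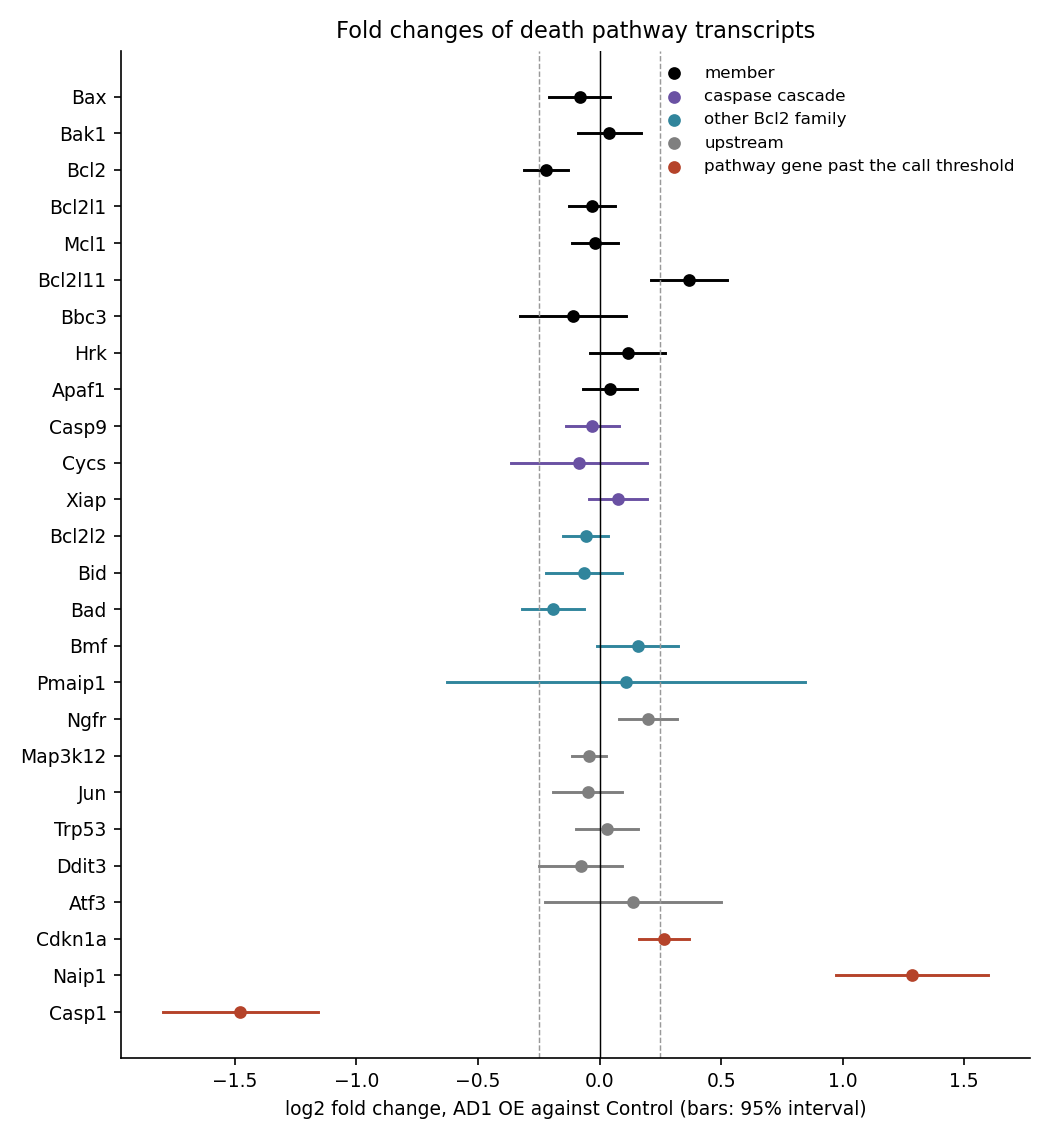
Log2 fold change of AD1 OE against Control from edgeR for the 9 members and 17 pathway genes, with bars for the 95% interval, a solid line at 0 and dashed lines at the fold limit of 0.25 in each direction. Bcl2l11 (0.37) and Bcl2 (-0.22) are the members whose bars stay clear of 0, and Casp1 (-1.48) and Naip1 (1.29) lie far outside the dashed lines.

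Upstream of the Bcl2 family, stress kinases and transcription factors gave 0 calls among 19 tested genes, with 2 higher and 1 lower at an unadjusted p under 0.05, against 18.6% of all tested genes (edgeR), and DESeq2 also called 0. These 3, named after their values were seen, were Egln3, a prolyl hydroxylase linked to death after nerve growth factor loss, with a log2 fold change of 0.21 and groups that did not overlap (adjusted p = 0.0655, edgeR), and the Jun kinases Mapk8 at 0.11 and Mapk10 at -0.14 (adjusted p = 0.232 and 0.171, edgeR). Map3k12, the dual leucine zipper kinase that starts the death signal after neurotrophin loss, averaged 96.1 and 99.0 CPM in AD1 OE and Control (log2 fold change -0.04, adjusted p = 0.527, edgeR). Jun, its downstream factor, averaged 63.1 and 65.3 CPM (log2 fold change -0.05, adjusted p = 0.756, edgeR). The stress factors Ddit3 and Atf3 had log2 fold changes of -0.08 and 0.14 (adjusted p = 0.662 and 0.724, edgeR). Trp53, which encodes p53, averaged 37.5 and 36.7 CPM (log2 fold change 0.03, adjusted p = 0.841, edgeR). At the ends of this list stood the p53 relative Trp63 at 0.36 and the stress-induced pseudokinase Trib3 at -0.14 (adjusted p = 0.628 and 0.566, edgeR).

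Among 14 tested p53 target genes, 1 was called, as higher, against 2.57% of all tested genes called in either direction. Groups did not overlap for 2 of 14, against 13.0% of all tested genes, and the second gene was lower in AD1 OE and not called. Cdkn1a, which encodes the cell cycle inhibitor p21, had 97.8, 92.7, 104 and 89.9 CPM in AD1 OE and 76.9, 82.0, 78.4 and 82.4 CPM in Control. The groups did not overlap, and the log2 fold change of 0.27 (SE 0.05, adjusted p = 0.00484, edgeR) passed both limits narrowly. It was called in 7 of 17 alternative fits, with adjusted p up to 0.0210, so its call is not firm. The other 13 targets were not called, and the lowest log2 fold change among genes of at least 1 CPM was -0.23 for the receptor gene Eda2r, at 0.93 and 1.10 CPM (adjusted p = 0.675, edgeR).

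Neurotrophin receptors and death receptor genes gave 0 calls among 13 tested with edgeR, where 2 had an adjusted p under 0.05 (6.55% of all tested genes), 6 an unadjusted p under 0.05 (18.6% of all) and 4 had groups that did not overlap (13.0% of all). Ntrk3, which encodes TrkC, averaged 343 ± 31.0 CPM in AD1 OE and 278 ± 16.9 in Control (SD, n = 4; log2 fold change 0.30, adjusted p = 0.0171, edgeR) and was called with DESeq2. Ngfr, the p75 receptor that can signal death or survival, had 1319, 1196, 1346 and 1211 CPM in AD1 OE and 1072, 1176, 1069 and 1105 CPM in Control. Its groups did not overlap, but the log2 fold change of 0.20 had an adjusted p of 0.0542 (edgeR). Ret, a receptor subunit for GDNF family ligands, had the lowest log2 fold change of the list, -0.12 (adjusted p = 0.199, edgeR). Cflar, an inhibitor of Casp8 activation, had the other adjusted p under 0.05. This gene was singled out after its values were seen, with 54.9 CPM in AD1 OE and 48.0 in Control (log2 fold change 0.19, adjusted p = 0.0158, edgeR). The 4 genes whose groups did not overlap were Ntrk3, Ngfr and Cflar, all higher in AD1 OE, and Ret, which was lower.

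Genes of dead cell clearance gave 0 calls among 14 tested (edgeR and DESeq2). At an unadjusted p under 0.05 stood 3, of which 1 was higher and 2 lower, against 18.6% of all tested genes (edgeR). Elmo1, which acts in the engulfment of dying cells, had the highest log2 fold change, 0.16 (adjusted p = 0.0668, edgeR). The complement gene C1qc, made by macrophages that clear dying cells, had the lowest, -0.23, at 17.8 ± 0.84 CPM in AD1 OE and 21.0 ± 2.27 in Control (SD, n = 4, adjusted p = 0.109, edgeR). Its partner genes C1qa and C1qb, named after their values were seen, had log2 fold changes of -0.20 and -0.21 (adjusted p = 0.287 and 0.261, edgeR).

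**Figure D4:**
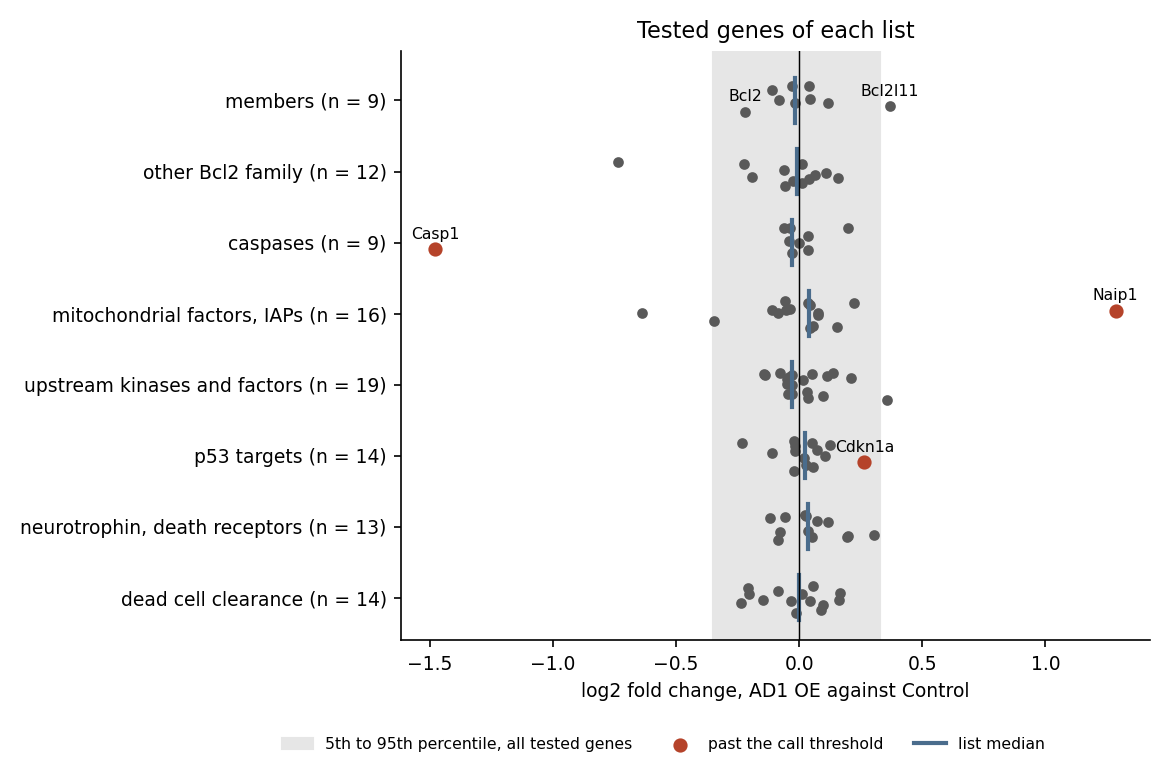
Log2 fold change of every tested gene of the members and the 7 pathway lists, 1 row per list with its number of tested genes; vertical bars are list medians, red points are called genes, and the grey band spans the 5th to 95th percentile of all tested genes. List medians lie between -0.03 and 0.04, and the called genes are Casp1, Naip1 and Cdkn1a.

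Cell types of the ganglion were followed by summed marker levels. The 8 neuronal markers summed to between 7961 and 8202 CPM in AD1 OE and between 8056 and 8493 CPM in Control, and 0 of 8 were called. For the 8 glial markers the sums ran from 1253 to 1565 and from 1282 to 1560 CPM, and for the 6 macrophage markers from 80.6 to 97.3 and from 84.5 to 91.4 CPM. Sums of the 6 fibroblast markers were 5777 to 6542 CPM in AD1 OE and 4947 to 6065 CPM in Control, and of the 6 cycling markers 294 to 353 and 288 to 328 CPM. Endothelial (6 genes), erythroid (6), muscle (6) and spinal cord (6, of which 4 were tested) sums also overlapped between the groups, and no marker list had a member at 0 in all libraries. Exact permutation tests, two-sided, gave p from 0.0571 (neurons) and 0.0857 (fibroblasts) up to 0.943 over the 9 lists, with adjusted p of at least 0.386, where the smallest p that 4 against 4 allows is 0.0286. Single markers can differ where a sum does not. Of the fibroblast markers 0 were called, but 3 were higher and 1 lower at an unadjusted p under 0.05, against 18.6% of all tested genes (edgeR). At an adjusted p under 0.05 stood 1 of them, against 6.55% of all. At the unadjusted limit the glial list held 2 lower, the macrophage list 1 higher and the neuronal list 1 each way. The part of cell makeup in the Bcl2 and Bcl2l11 values was not tested.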

How the data were processed

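Total RNA from E18.5 DRG was sequenced as 8 stranded mRNA libraries on a NovaSeq6000. The authors aligned reads to GRCm39 with STAR 2.7.8a after bcl2fastq 2.20.0.422 and deposited raw counts per Ensembl gene from featureCounts 2.0.1, 1 file per library, neither normalized nor filtered; a strand setting is not given in the sources used here. Groups and replicate numbers came from the labels, which do not say whether a library is 1 embryo. The paper gives n = 4 embryos per group for this comparison. The tests judged each difference against the spread between these libraries. All replicate pairs differed beyond counting noise (chi-square per degree of freedom 4.37 to 12.1). The labels do not say whether libraries with the same replicate number are paired. Correlations of their deviations were -0.02, -0.07, -0.03 and 0.34, which cannot exclude a shared litter or batch.

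The counts went into edgeR 4.0.16 (R 4.3.3), with filterByExpr, TMM scaling, a quasi-likelihood test of genotype and no covariate, and Benjamini-Hochberg adjustment over 17721 genes. CPM used TMM-scaled totals. DESeq2 1.42.0, limma-voom (limma 3.58.1), other scalings, filters and thresholds, a replicate block, sex, and leaving out each library were alternatives. Of 55414 IDs, 52081 had a symbol in GENCODE M21 (GRCm38), which also gave exon lengths and chromosomes. Genes sharing exons with members were low: Gm45808 at 0, D630008O14Rik at most 0.0383 and Ggnbp1 1.06 to 2.52 CPM. Start windows are RefSeq's for GRCm38.p6; all 9 members matched by symbol.

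The text names the 9 members, Dach1 and Avil, 16 further pathway genes whatever their values (of which 1 is not reported here), called genes of the 7 lists, and in each list the highest and lowest log2 fold change at a mean of at least 1 CPM. Other genes named are markers, Naip copies, Cflar, Bik, Egln3, Mapk8, Mapk10, C1qa and C1qb. Members and lists were chosen with earlier results of these data known.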

Additional observations from a re-analysis of the deposited data

Results flagged for a closer look

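In groups of 4, a library was singled out where its gap to the nearest of the others took a share of the group's range above Dixon's 95% critical value. Over 39 named genes in 2 groups, this held for 4 of 78 groups, close to the 1 in 20 that chance gives. Bbc3 stood at 13.6 CPM in AD1 OE replicate 3, where the other AD1 OE libraries lay between 10.7 and 11.2 CPM. Hrk reached 11.3 CPM in AD1 OE replicate 1, against 10.3 to 10.4 CPM in the others. Pmaip1 was low in AD1 OE replicate 4, at 0.360 CPM against 0.588 to 0.624 CPM, and high in Control replicate 1, at 0.945 CPM against 0.339 to 0.436 CPM, with 10 to 26 counts per library.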

How the results depend on the processing

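Of 153 member values under the 17 alternative fits, 151 kept their side of the call rule and the other 2 were Bcl2l11, called with DESeq2 and without an expression filter. Members called numbered 1 under each of those fits, 2 at an adjusted p under 0.05 with no fold limit, and 0 without any single library. Pathway calls were 5 at an adjusted p under 0.05 with no fold limit and 2 to 3 without single libraries. Over all genes, calls numbered 747 without an expression filter, 1161 at an adjusted p under 0.05 with no fold limit, 129 at an adjusted p under 0.05 with an absolute log2 fold change over 1, and 289 to 420 without single libraries, the lowest without AD1 OE replicate 1; the loosened and tightened thresholds set their counts by construction, and the cause of the others was not tested. DESeq2 called 657 genes and sex as a covariate left 362. With the replicate number as a block, 348 genes, 0 members and 2 pathway genes were called, Cdkn1a no longer among them. The summed neuronal markers reached the smallest possible p only without Control replicate 1 (log2 ratio -0.07, p = 0.0286, exact permutation test). No direction was reversed among called values. Depth limits genes with few counts, among them Pmaip1 (10 to 26 per library), Casp1 and Naip1.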
